A study of Mus musculus with 4 samples.

Results

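Gene deserts are long stretches of the genome without protein-coding genes. The regions described here are the open chromatin regions of mouse autosomes that held at least 1 ATAC-seq peak with its summit more than 100 kb from the body of every protein-coding gene. Overlapping peaks of the wild-type (WT) and knockout (dKO) lists were joined, which gave 7990 gene-desert regions among 77210 autosomal regions (10.3%). Of these, 1 had peaks on both sides of the distance limit and 89 held more than 1 peak of a list. The summits lay a median of 199.4 kb and at most 2240 kb from the nearest protein-coding gene. Just inside the limit were a WT-only region 100.063 kb from Shox2 and a shared region 100.078 kb from Egln3, and just outside it were shared regions 99.919 kb from Gm52008 and 99.918 kb from Maf.

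ATAC-seq reads the DNA that a transposase can reach. The cells were hair follicle stem cells, the resting stem cells of the follicle bulge, sorted from dorsal skin of males 70 days after birth (P70), when the follicles were resting in their second telogen. The WT group was 2 mice (numbers 13 and 15) with floxed Nfib, floxed Nfix and a floxed YFP reporter at R26 but no Cre, and the dKO group was 2 mice (14 and 16) that carried these alleles together with Sox9-CreER, an inducible Cre made in cells that express Sox9. Both sorts took cells without DAPI and Sca-1 and with integrin alpha 6 and CD34, and the dKO sort also required YFP. Loss of Nfib and Nfix, the Cre and the YFP gate came together in dKO, so their parts cannot be told apart. Each genotype has a single deposited list of peaks, so no difference between genotypes has a replicate check. In sorted bulk cells, fewer cells with an open region and less opening per cell cannot be told apart.

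NFIB and NFIX are nuclear factor I proteins, transcription factors that bind a palindromic site and also a single arm of it. Deserts beside genes of development are known to hold enhancers that act on a promoter over long distances by looping of the DNA. Much of the rest of a desert is closed chromatin of the nuclear periphery in many cell types. Sox9, a transcription factor that keeps bulge cells in their stem cell state, is a well-known gene with enhancers spread through the deserts on its flanks.

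Sequence was at hand for the start sites of non-coding genes inside the deserts. Peak summits fell in the promoter window (250 bases before to 50 bases after the start) of 83 of 1704 desert lncRNA genes (4.87%), lncRNAs being long transcripts that encode no protein. A shared region stood at 64 of these windows (77.1%), a WT-only one at 10 (12.05%) and a dKO-only one at 9 (10.8%), and some neighbouring windows share a region. Of all desert regions 53.2% were shared, 20.9% WT-only and 25.9% dKO-only, so the windows were more often shared. Among regions within 1 kb of a protein-coding gene end, 90.1% were shared. The 4.87% was not compared with the rate at other promoters. The windows below are the 2 strongest of each class and that of Mir205hg, the host transcript of the epithelial microRNA miR-205, from RefSeq on GRCm38.p6, 5′ to 3′ on the strand of the gene. Capitals mark matches, on either strand, to the letters searched: the NFI core TTGGCA, AP-1 TGANTCA, SOX ACAAAG, FOX TGTTTAC, RUNX TGTGGTT, TEAD GGAATG, homeobox TAATTA and, for the GATA family, AGATAAG, with the longer sites of p63, CTCF and the NFI palindrome, which are given by name alone.
Gm35551: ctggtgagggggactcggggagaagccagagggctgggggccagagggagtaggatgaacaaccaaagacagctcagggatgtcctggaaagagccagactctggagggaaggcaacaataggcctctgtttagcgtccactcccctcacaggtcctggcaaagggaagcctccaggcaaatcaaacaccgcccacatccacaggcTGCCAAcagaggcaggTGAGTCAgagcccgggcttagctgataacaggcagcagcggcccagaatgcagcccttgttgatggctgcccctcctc
A430048G15Rik: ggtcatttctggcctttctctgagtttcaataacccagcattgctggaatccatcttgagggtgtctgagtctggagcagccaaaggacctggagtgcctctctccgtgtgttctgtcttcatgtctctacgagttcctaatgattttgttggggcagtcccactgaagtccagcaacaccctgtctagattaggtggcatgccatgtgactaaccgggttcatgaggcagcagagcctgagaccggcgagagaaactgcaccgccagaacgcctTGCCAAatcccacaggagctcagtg
Mir205hg: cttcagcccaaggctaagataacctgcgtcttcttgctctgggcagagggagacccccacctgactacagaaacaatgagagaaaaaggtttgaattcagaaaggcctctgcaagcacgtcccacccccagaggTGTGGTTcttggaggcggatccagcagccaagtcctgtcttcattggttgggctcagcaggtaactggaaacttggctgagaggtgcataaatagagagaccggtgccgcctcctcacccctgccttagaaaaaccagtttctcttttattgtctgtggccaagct
4930543I11Rik: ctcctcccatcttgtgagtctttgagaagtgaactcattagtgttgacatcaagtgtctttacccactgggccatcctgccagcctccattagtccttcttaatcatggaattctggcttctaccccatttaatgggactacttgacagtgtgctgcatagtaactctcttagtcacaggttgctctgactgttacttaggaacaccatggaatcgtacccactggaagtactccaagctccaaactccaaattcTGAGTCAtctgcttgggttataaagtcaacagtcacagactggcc
Gm33502: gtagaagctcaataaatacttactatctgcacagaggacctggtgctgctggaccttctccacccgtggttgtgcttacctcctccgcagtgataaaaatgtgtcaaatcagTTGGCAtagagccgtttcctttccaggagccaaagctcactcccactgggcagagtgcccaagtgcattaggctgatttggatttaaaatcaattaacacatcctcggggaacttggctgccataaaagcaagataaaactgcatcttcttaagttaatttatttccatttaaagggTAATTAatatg
D530049I02Rik: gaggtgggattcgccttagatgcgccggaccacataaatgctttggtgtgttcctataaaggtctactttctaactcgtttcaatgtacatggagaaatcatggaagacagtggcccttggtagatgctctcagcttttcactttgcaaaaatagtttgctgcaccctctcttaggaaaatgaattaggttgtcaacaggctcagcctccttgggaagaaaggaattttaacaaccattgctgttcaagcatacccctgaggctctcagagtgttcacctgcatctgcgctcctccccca
1700011B04Rik: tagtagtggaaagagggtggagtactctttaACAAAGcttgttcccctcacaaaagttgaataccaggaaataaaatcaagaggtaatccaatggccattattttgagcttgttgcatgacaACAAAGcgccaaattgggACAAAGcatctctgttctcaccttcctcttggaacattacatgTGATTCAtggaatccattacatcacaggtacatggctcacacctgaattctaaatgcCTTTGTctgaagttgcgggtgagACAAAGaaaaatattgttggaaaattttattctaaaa
The window of Gm35551 (chr17:84026272-84026571, minus strand), between Haao and Zfp36l2, had the strongest peaks of the 83, with a deposited pileup (reads or fragments at the summit, not scaled for depth) of 747 in WT and 319 in dKO, and it held an NFI core at bases 207 to 212 beside an AP-1 match at bases 223 to 229. That of A430048G15Rik (chr2:133431847-133432146, plus strand), in the desert beside the bone morphogenetic protein gene Bmp2, had pileups of 652 and 93, a deposited fold enrichment over local background of 11.9 in WT and 11.5 in dKO, and an NFI core at bases 276 to 281. Mir205hg (chr1:193510161-193510460, minus strand) had pileups of 331 and 167 and a RUNX match. The WT-only windows, of 4930543I11Rik (chr10:67785493-67785792, plus strand) with an AP-1 match and of Gm33502 (chr16:30793172-30793471, plus strand) with an NFI core and a homeobox match, had WT pileups of 33 and 46. The dKO-only windows, of D530049I02Rik (chr1:73398718-73399017, plus strand) with 0 matches and of 1700011B04Rik (chr13:35181373-35181672, plus strand) with 5 SOX matches and 1 AP-1 match, had dKO pileups of 41 and 40.

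AP-1 letters were more frequent in the desert promoters with a summit than in those without. TGANTCA, the site of the FOS and JUN proteins, stood in 23 of the 83 windows (27.7%, Wilson 95% interval 19.2 to 38.2), in 9.81% of the other 1621 desert lncRNA windows (8.45 to 11.4) and in 7.93% of all 27025 promoter windows of the table (7.62 to 8.26). The NFI core stood in 24.1% (16.2 to 34.3), 18.7% (16.9 to 20.7) and 14.4% (13.9 to 14.8), so the intervals of the windows with and without a summit overlapped. The NFI palindrome was in 0 of the 83, in 0.0617% of the other desert windows and in 0.0407% of all windows. TAATTA was in 15.7%, 9.44% and 5.31%, TEAD letters in 22.9%, 16.5% and 14.6%, and SOX letters in 19.3%, 26.6% and 18.7%. In the same order, FOX letters were in 4.82%, 4.69% and 3.55%, RUNX letters in 6.02%, 6.54% and 5.37%, and GATA letters in 3.61%, 5.12% and 3.07%. The p63 letters were in 0.0%, 0.802% and 0.770%, and CTCF letters in 0.0%, 0.0% and 0.0111%. The median share of G and C was 48.3% in the 83 windows, 45% in the other desert windows and 52.7% in all windows, and its part in these shares was not tested. Some of the 83 windows overlap on opposite strands, such as those of 1700025O08Rik and Gm30886, so a match can count for both. The intervals treat windows as independent. A match is a run of letters, not a bound site.

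The lists held 66590 autosomal WT and 62002 autosomal dKO peaks, with a median deposited pileup of 73 and 38. The lowest local background, recovered from pileup and fold, was 5.29 in WT and 2.73 in dKO, a ratio of 1.94, so the depth of the lists differed if both were called alike. All 10 genes examined as hair follicle stem cell markers had a peak within 1 kb of a gene end in both lists. Among them were Cd34, Itga6, Krt14, Krt15, Lhx2 and Nfatc1. Of 5 markers of the interfollicular epidermis, 4 had such a peak in both lists. Ly6a, which encodes the Sca-1 used to sort cells out, had none in either list. Peaks at gene ends thus did not by themselves tell these cell types apart. Of 6 fibroblast markers 3 had one in WT and 2 in dKO, of 5 melanocyte markers 2 in both, of 7 immune markers 1 in both, with Ptprc, Cd3e and Cd3d among those without, and of 5 endothelial markers 2 in both.

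Regions with a called peak in 1 list alone (WT-only or dKO-only) took another balance in the deserts than in the rest of the genome. There were 2070 dKO-only, 1666 WT-only and 4254 shared gene-desert regions. The dKO-only share was 25.9% (Wilson 95% interval of counting error 24.96 to 26.9), where 14.2% of all autosomal regions were dKO-only, and the WT-only share was 20.9% (19.97 to 21.8), where 21.2% of all autosomal regions were WT-only. Deserts thus held 18.9% of all dKO-only, 10.2% of all WT-only and 8.52% of all shared regions. By single peaks, 10.3% of the dKO list and 8.91% of the WT list lay in deserts.

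The class most like the deserts is the nearer intergenic one, the 22567 regions outside gene bodies and from 1 to 100 kb from a protein-coding gene. There 15.6% were dKO-only (15.2 to 16.1) and 22.7% WT-only (22.2 to 23.3). The dKO-only share was 10.3 percentage points higher in deserts (normal 95% interval of the difference 9.21 to 11.4), and the WT-only share was lower by a difference of -1.88 points (-2.93 to -0.836). Within gene bodies 14.3% of 34295 regions were dKO-only and 25.5% WT-only, and at gene ends 3.50% and 6.35% of 12358 regions. For every dKO-only region there were 0.805 WT-only regions in deserts, 1.45 in nearer intergenic DNA and 1.79 in gene bodies. No test over mice was possible, and the intervals treat regions as independent.

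The order within the deserts, with more dKO-only than WT-only regions, changed when weak peaks were removed by threshold. It was kept when list length or depth was evened out. At a deposited q value of 1e-05 or less, which leaves 6942 desert regions, there were 1718 WT-only and 1499 dKO-only ones. Counting single-list regions only where the peak was in the stronger 50% of its list, there were 291 WT-only and 282 dKO-only ones. With lists of equal length there were 1438 and 2240, and with the WT list scaled to the dKO background 1608 and 2112. The higher dKO-only share of deserts over nearer intergenic DNA kept its direction in these 4 settings, at 9.03, 3.64, 10.7 and 10.4 points.

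All autosomes had a higher dKO-only share in deserts than in their nearer intergenic DNA, 19 of 19. The difference ran from 3.64 points on chromosome 6, where 21.5% of 331 desert regions and 17.8% of nearer ones were dKO-only, to 14.8 points on chromosome 15, at 29.5% of 410 and 14.7%. In deserts dKO-only outnumbered WT-only regions on 17 of 19 autosomes. Chromosome 6, with 86 WT-only and 71 dKO-only desert regions, and chromosome 11, with 99 and 83, had the opposite order, and on chromosome 4 the counts were 118 and 119. In nearer intergenic DNA WT-only outnumbered dKO-only regions on 19 of 19. The WT-only share was lower in deserts on 14 and higher on 5 autosomes, from a difference of -7.29 points on chromosome 2 to 5.54 points on chromosome 6, so its direction was not shared by all chromosomes.

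**Figure D1:**
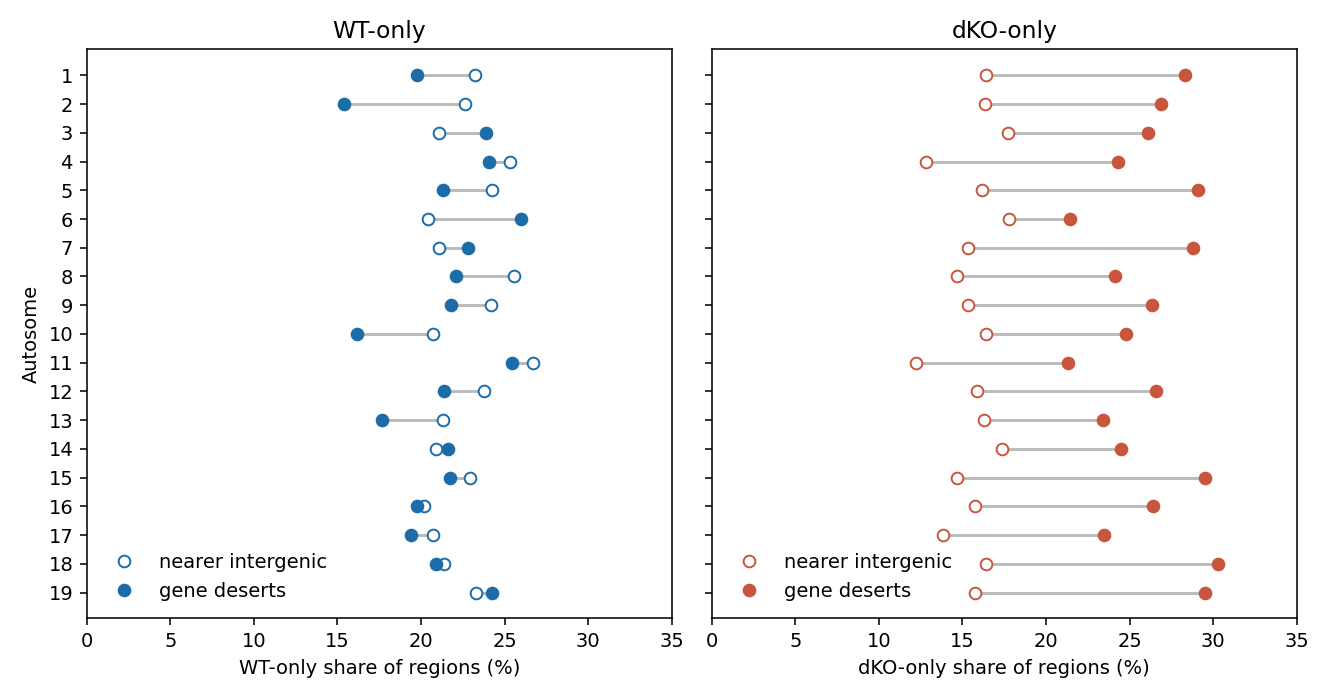
Share of WT-only (left) and dKO-only (right) regions in percent for each of the 19 autosomes, in gene deserts (filled) and in nearer intergenic DNA (open). The filled dKO-only points lie to the right of the open ones on all 19 autosomes, and the WT-only points lie on either side.

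The dKO-only share was higher at each step away from genes, within deserts as well as outside them. It was 12.2% of 7126 regions at 1 to 10 kb, 16.1% of 10823 at 10 to 50 kb and 19.8% of 4618 at 50 to 100 kb. In the deserts it was 23.5% (22.2 to 24.9) of 4009 regions at 100 to 200 kb, 27.1% (25.5 to 28.8) of 2701 at 200 to 400 kb, 30.3% (27.7 to 33.1) of 1075 at 400 to 800 kb and 33.7% (27.5 to 40.4) of 205 beyond 800 kb. The interval at 400 to 800 kb overlapped those of the steps on both its sides. The WT-only share showed no such order, with 20.005%, 22.7%, 20.3% and 16.6% in the same steps of the deserts, and the shared ones made up 56.5%, 50.2%, 49.4% and 49.8%. The median fold of the peaks differed little over these steps. It was 6.36, 6.20, 6.20 and 6.36 in WT and 6.17, 6.17, 6.20 and 5.90 in dKO.

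**Figure D2:**
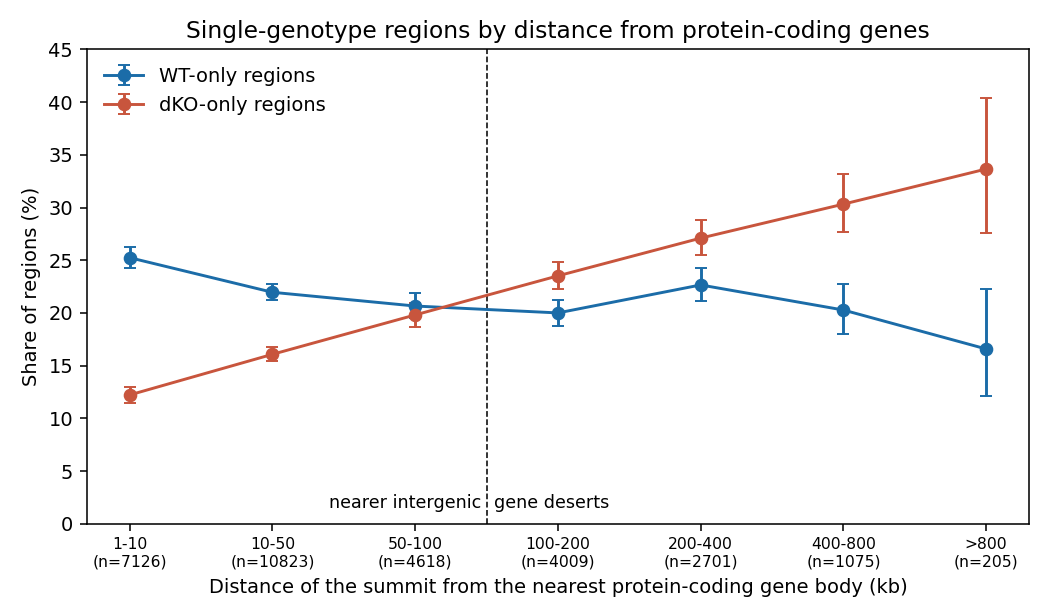
Share of intergenic regions that were WT-only or dKO-only, in percent with Wilson 95% intervals, by distance of the summit from the nearest protein-coding gene body in kb. The dKO-only share goes from 12.2% at 1 to 10 kb to 33.7% beyond 800 kb, and the lines cross near the 100 kb limit that defines the deserts.

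At like strength the dKO-only share was higher in deserts than in nearer intergenic DNA in each strength class. Regions with a dKO peak were split into 5 classes of equal size by the deposited −log10 p of that peak. From the weakest to the strongest class, the dKO-only share was 60.9%, 43.0%, 24.8%, 9.83% and 1.34% in deserts and 50.0%, 26.6%, 12.1%, 3.67% and 0.284% in nearer intergenic DNA. In the middle class the difference was 12.7 points (10.2 to 15.1), with 1402 desert and 4032 nearer regions, and in the strongest it was 1.06 points (0.159 to 1.9603), on 9 dKO-only desert regions. For the WT list the difference changed sign with strength. The WT-only share was 52.1% in deserts and 56.7% nearer to genes in the weakest class, 35.9% and 39.7% in the next, 24.3% and 22.5% in the middle one (difference 1.87 points, -0.775 to 4.51), 11.1% and 7.52% in the class above, and 3.27% and 1.53% in the strongest (1.73 points, 0.360 to 3.10; 24 WT-only desert regions). Among strong peaks, those in deserts lacked a counterpart more often than nearer ones in both lists.

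**Figure D3:**
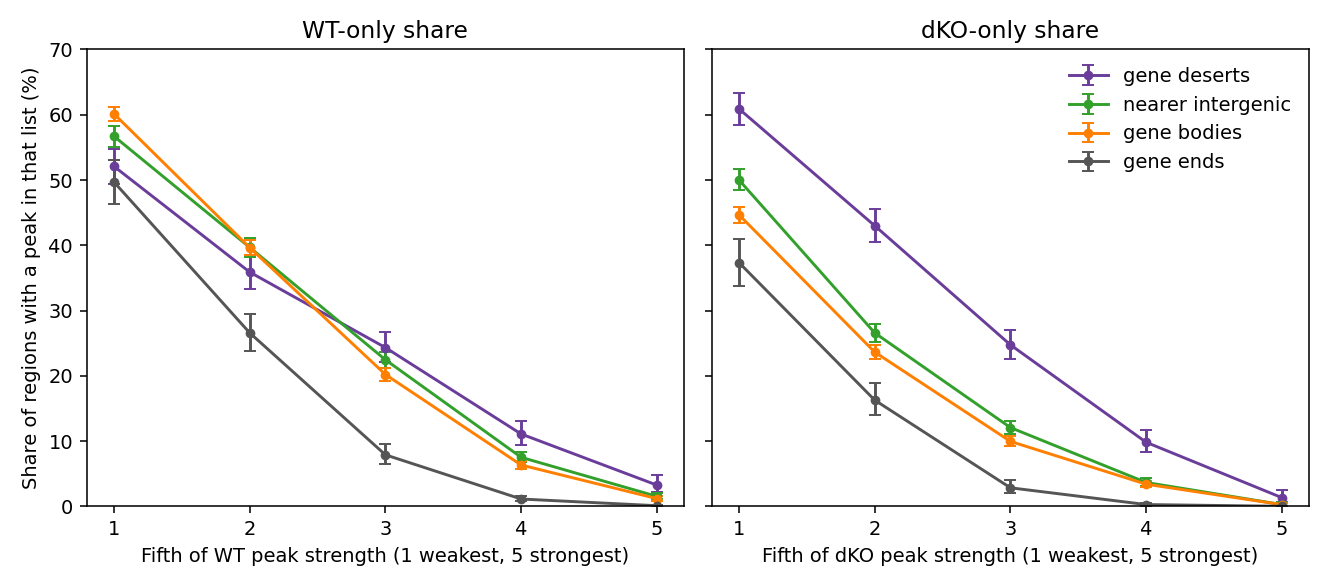
Share of regions with a WT peak that were WT-only (left) and of regions with a dKO peak that were dKO-only (right), in percent with Wilson 95% intervals, by strength class of the peak in its own list. The desert line lies above the others in all 5 dKO classes, and in the WT panel it passes from below to above the nearer intergenic line.

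Among peaks of middle strength, the share without a counterpart was higher beyond 200 kb than at 100 to 200 kb in both lists, with intervals that overlap. The dKO-only share of dKO peaks in this class was 8.81% at 1 to 10 kb, 12.6% at 10 to 50 kb, 15.98% at 50 to 100 kb, 20.96% at 100 to 200 kb, 27.9% at 200 to 400 kb, 29.7% at 400 to 800 kb (202 regions) and 31.4% beyond (35 regions, 18.6 to 48.0). The WT-only share of WT peaks was 23.7%, 21.4% and 22.97% in the 3 steps outside the deserts, and 21.1% (18.2 to 24.3), 27.8% (23.9 to 32.2), 28.5% (21.9 to 36.1) and 25% (24 regions, 11.999 to 44.9) within them. Within the deserts the values of the lists were thus close up to 800 kb, and they were further apart nearer to genes, where the WT-only share was the higher one. Whether the steps differ between the lists was not tested.

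Desert regions with a peak in 1 list alone were narrow and weak, as such regions were nearer to genes. A peak near the calling threshold can be missed in the other list, so weak single-list peaks follow in part from how the class is defined. WT-only desert peaks had a median width of 451 bp, a median pileup of 33 and a median fold of 4.48 in the WT list, against 808 bp, 72 and 7.26 for the WT peaks of shared desert regions. In the dKO list the values were 431 bp, 18 and 4.56 for dKO-only and 717 bp, 38 and 7.30 for shared regions. In nearer intergenic DNA the median fold was 4.34 for WT-only and 4.29 for dKO-only regions. Pileup was not scaled for depth, so a difference in pileup between the lists is not read as a change here or elsewhere.

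Open regions were sparse in deserts. The 1393 gaps of over 200 kb between protein-coding genes hold 680 Mb that lie more than 100 kb from both flanking genes, with 11.7 regions per Mb, against 29.5 per Mb in the 766 Mb of nearer intergenic DNA. Per Mb there were 6.25 shared, 2.45 WT-only and 3.04 dKO-only regions in deserts and 18.2, 6.70 and 4.61 nearer to genes. Unsequenced stretches of the assembly were not subtracted, and the placement of the bordering genes was not checked. Some gaps begin at a predicted gene placed near a chromosome start, such as the empty one from LOC102636558 to Xkr4 (2.97 Mb). The gaps held 7979 of the regions, and the other 11 lay beyond the outermost genes of a chromosome. There were 513 deserts with 0 regions. Among the 880 with a region, 420 had more dKO-only, 274 more WT-only and 186 equal numbers.

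Long and sparsely opened deserts had the higher dKO-only shares. It was 21.2% in deserts of 0.2 to 0.5 Mb (2212 regions), 25.8% at 0.5 to 1 Mb (2870), 29.2% at 1 to 2 Mb (2044) and 30.6% above 2 Mb (853), with WT-only shares of 20.3%, 21.8%, 21.0% and 18.9%. Of the deserts with over 0.2 Mb between their inner limits, those with fewer than 2 regions per Mb had 44.1% dKO-only and 22.4% WT-only regions (143 regions), and those with 10 or more per Mb had 24.2% and 21.5% (5560 regions). Between these, at 2 to 5 per Mb the shares were 38.8% and 20.2%, and at 5 to 10 per Mb 43.9% and 17.0%. The longest deserts were nearly empty. The gap from Pcdh20 to Pcdh9 on chromosome 14, 4.54 Mb between genes of neuronal protocadherins, held 11 regions (2 WT-only, 4 dKO-only, 5 shared). That from Celf4 to Pik3c3 on chromosome 18 (4.51 Mb) held 6, that from Olfm4 to Pcdh17 (4.42 Mb) and that from Cntnap5b to Cdh20 (4.28 Mb) held 2 each, and that from Tenm3 to Aga (3.99 Mb) held 11, of which 7 were dKO-only. Slc39a10 to Tmeff2 (3.97 Mb) held 21, with 4 WT-only and 8 dKO-only.

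The farthest member lay in the Celf4 to Pik3c3 desert (chr18:27994247-27994704), 2240 kb from a gene, and was WT-only with a pileup of 16. Next came a dKO-only region 1880 kb from Cdh20 (chr1:102888678-102888953) with a pileup of 11. The other members among the 5 farthest were shared: chr18:28470388-28471530 with pileups of 95 in WT and 53 in dKO, and, in the desert from Dsel to Cntnap5a, chr1:113637234-113638779 with 84 and 55 and chr1:113630866-113631508 with 42 and 12. The single-list ones had a −log10 q of 2.67 and 2.70. The first of the shared ones had a fold of 10.5 and 10.2, so sites of the deepest deserts were both weak and strong.

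Desert regions stood further apart than other open regions. The median distance to the nearest region was 6.78 kb in deserts and 5.32 kb in nearer intergenic DNA, and 37.3% of desert regions (36.2 to 38.4) had no other within 10 kb, against 25.4% (24.8 to 26.0). The dKO-only ones were the most isolated, at 46.0% (43.9 to 48.2), with 35.6% for WT-only and 33.7% for shared desert regions. This order was not particular to deserts. In nearer intergenic DNA 32.9% of dKO-only (31.4 to 34.5), 24.9% of WT-only and 23.7% of shared regions were isolated. Within gene bodies the shares were 32.8%, 23.3% and 21.96%. Of the desert regions, 19.4% lay in runs, here 5 or more regions in a row that were each less than 10 kb apart. In these runs 17.3% were dKO-only (15.5 to 19.3) and 20.1% WT-only, and among isolated desert regions 32.0% (30.3 to 33.7) and 19.9%.

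Single-list desert regions had a neighbour of their own class more often than one of the opposite class. For WT-only regions a shared neighbour was the most frequent. For dKO-only regions the intervals of the shared and the dKO-only neighbours overlapped. The region nearest to a dKO-only desert region was counted where it was also in a desert. It was dKO-only in 43.5% of 1902 cases (41.3 to 45.8), WT-only in 11.1% and shared in 45.3% (43.1 to 47.6). The nearest to a WT-only one was WT-only in 34.0% of 1567 cases (31.6 to 36.3), dKO-only in 12.3% and shared in 53.7%. Next to shared desert regions the shares were 21.7% dKO-only, 21.1% WT-only and 57.3% shared. In nearer intergenic DNA the neighbour of a dKO-only region was dKO-only in 26.4% (24.8 to 28.1) and that of a WT-only region WT-only in 31.0% (29.5 to 32.4). Neighbours share chromatin and local background, and regions are not replicates.

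The longest of the 227 desert runs held mostly shared regions. A run of 15 regions over 56.7 kb lay between Spring1 and Med13l on chromosome 5 (2 WT-only, 1 dKO-only, 12 shared). A run of 14 lay in the desert of Mir205 between Camk1g and Plxna2 on chromosome 1, with 4 WT-only regions, 10 shared ones and 0 dKO-only, and another of 14 between Moxd1 and Ccn2, the gene of a matrix protein, on chromosome 10 (2, 4 and 8). A run of 13 lay between Phlda1 and Krr1 (2, 2 and 9). Runs of 12 lay between Sox9 and Slc39a11 (5, 1 and 6), in 2 places between Usp25 and Cxadr (4, 2 and 6; 3, 1 and 8) and between Mpdz and Nfib (2, 2 and 8), the last beside one of the targeted genes.

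The desert with most regions was the gap from Usp25 to Cxadr on chromosome 16, which carries the let-7c and miR-99a genes, with 97 regions in 1.18 Mb (19 WT-only, 21 dKO-only, 57 shared), or 98.5 per Mb of its inner part. Klf4 to Actl7b on chromosome 4 and Slc10a2 to Efnb2 on chromosome 8 held 74 each. Jag1, encoding a Notch ligand, to Btbd3 held 71 (11, 17 and 43), Slc4a3 to Epha4 held 69 and Celf2 to Gata3 held 65 (8, 15 and 42).

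Some deserts leaned strongly to WT. The largest excess was in the desert from Enc1 to Arhgef28 on chromosome 13 (97253041 to 97898593, mm10), where 18 regions were WT-only, 0 dKO-only and 21 shared. Its strongest WT-only region (chr13:97564887-97566832), over the lncRNA gene Gm5086, had a WT pileup of 308 and a fold of 8.69. Its strongest shared region (chr13:97508103-97509336) had a pileup of 400 and a fold of 9.95 in WT, and 24 and 5.91 in dKO. Plpp3, the gene of a lipid phosphatase, to Usp24 on chromosome 4 (105232768 to 106315979) held 52 regions, of which 24 were WT-only, 7 dKO-only and 21 shared, with the strongest WT-only one (chr4:105467691-105468958) at a pileup of 297. Klf4, a transcription factor gene of epidermal differentiation, to Actl7b (chromosome 4, 55532476 to 56740004) had 21, 5 and 48, with the strongest WT-only one (chr4:56251081-56252284) at 287.

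The desert from the predicted gene Gm11677 to Sox9 (chromosome 11, 111726302 to 112782209) held 59 regions (21 WT-only, 7 dKO-only, 31 shared). The strongest WT-only one (chr11:112080886-112081830) lay 700.8 kb from Sox9 with a WT pileup of 121 and a fold of 14.2, and the strongest shared one (chr11:112550021-112551253), 231.5 kb from Sox9, had pileups of 420 in WT and 117 in dKO. Agtr1b to Tbl1xr1 on chromosome 3 (20367178 to 22076252) held 46 (16, 2 and 28). Gfra2, encoding a receptor for a neuronal growth factor, to Gm9195 on chromosome 14 (70979841 to 72431659) had 17, 4 and 16, with a WT-only region (chr14:71128075-71129170) at a pileup of 279.

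Other deserts leaned to dKO. Btbd3 to Sptlc3 on chromosome 2 (138287425 to 139493912) held 28 regions, of which 16 were dKO-only, 12 shared and 0 WT-only, and its strongest dKO-only one (chr2:138922092-138922858) had a dKO pileup of 50 and a fold of 9.79. Slc4a3 to Epha4, the gene of an ephrin receptor, on chromosome 1 (75559432 to 77367181) held 69 (6 WT-only, 21 dKO-only, 42 shared). Alcam, encoding a cell adhesion protein, to Zpld1 on chromosome 16 (52453082 to 55224124) held 0, 15 and 4 in the same order, so that most of its 19 regions were dKO-only. Thap1 to Zfp703 on chromosome 8 (26164152 to 26977335) had 2, 16 and 20.

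Inhba encodes the subunit of activin A, a ligand of the TGF-beta family, and its desert to Sugct on chromosome 13 (16031610 to 16857471) held 19 regions, of which 13 were dKO-only, 6 shared and 0 WT-only. The strongest dKO-only one (chr13:16678362-16679015) lay 646.8 kb from Inhba with a pileup of 34 and a fold of 9.39. The strongest shared one (chr13:16363962-16365092) had a pileup of 93 and a fold of 11.98 in WT, and 303 and 16.1 in dKO. Tnc, encoding the matrix protein tenascin C, to Pappa on chromosome 4 (64047016 to 65124173) had 2, 15 and 18, with the strongest dKO-only region (chr4:64155884-64156821) 109.6 kb from Tnc at a pileup of 63. These deserts were ranked by count and carry no test.

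**Figure D4:**
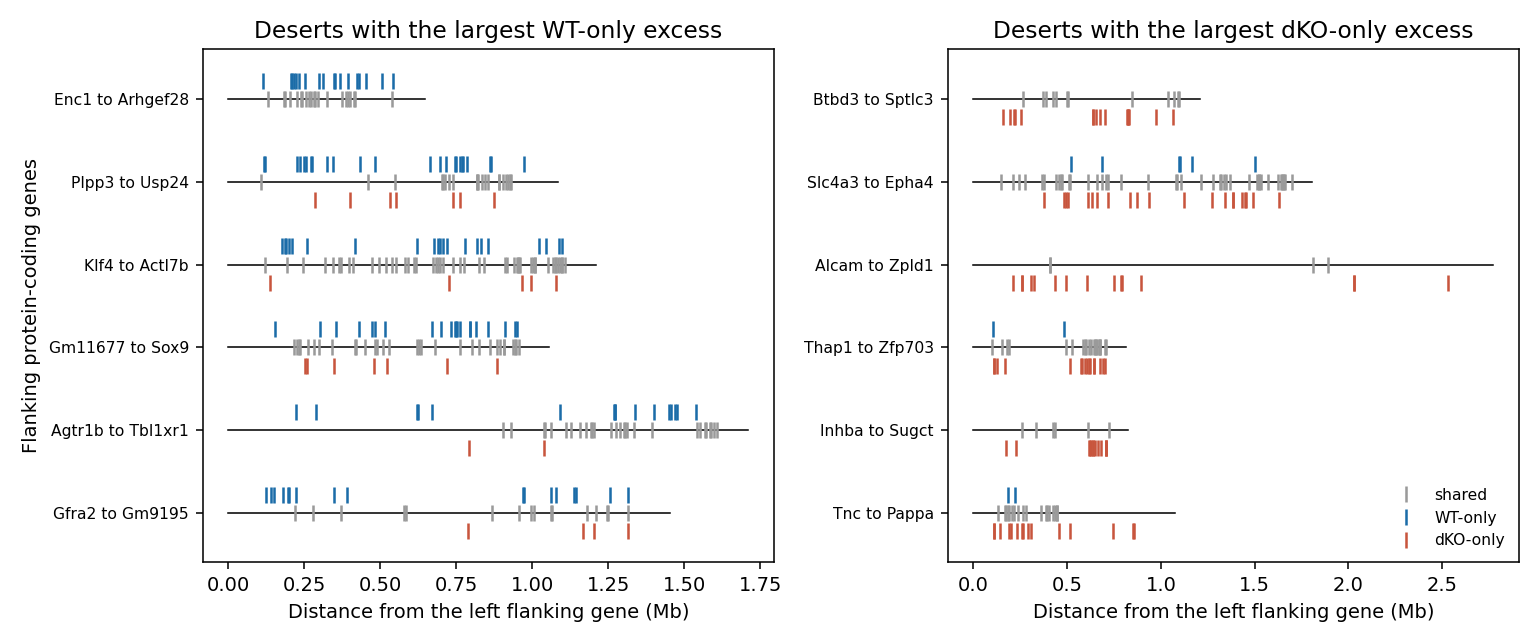
Positions of desert regions along the 6 deserts with the largest excess of WT-only (left) and of dKO-only regions (right), in Mb from the left flanking gene, with WT-only regions above, shared ones on and dKO-only ones below each line. Enc1 to Arhgef28 has 18 WT-only and 0 dKO-only regions, and Inhba to Sugct has 0 and 13.

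By the genes at their borders, the deserts of neuronal adhesion and synapse genes had the highest dKO-only share of the 5 lists. These genes, of 94 matched 83 flanking a desert, bordered 121 deserts with 611 regions, of which 39.1% were dKO-only and 17.3% WT-only, where all deserts had 25.9% and 20.9%. More dKO-only regions were found in 52 of the 121 and more WT-only ones in 17, against 420 and 274 of all 1393. They held 3.92 regions per Mb, against 11.7 over all deserts. Of any flanking gene, deserts with 2 to 5 regions per Mb and over 0.2 Mb between their inner limits had 38.8% dKO-only regions, close to the 39.1%. The part of density in the dKO-only share of the list was not tested. Cdh11 to Cdh5 held 43 (6 WT-only, 16 dKO-only, 21 shared), Igfbp7 to Adgrl3 had 7, 16 and 19, and Gm40892 to Flrt2 had 10, 8 and 14.

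Deserts beside hair follicle stem cell regulators were densely opened and had a lower dKO-only share over all their regions. With 20 of 32 genes at a desert, they were 27 deserts with 491 regions, 37.1 per Mb, of which 21.2% were WT-only and 20.2% dKO-only. Counted by desert, 12 of the 27 had more dKO-only and 11 more WT-only regions. Dense deserts of any flanking gene, with 10 or more regions per Mb by the limits above, had 24.2% dKO-only and 21.5% WT-only regions. The part of density in the shares of this list was not tested. Zeb2 to Acvr2a held 63 regions (13 WT-only, 12 dKO-only, 38 shared) and Mpdz to Nfib 58 (12, 10 and 36). Gm11677 to Sox9, picked above for its WT-only excess, is also in this list with 59 (21, 7 and 31). The shares of the list without it were not computed. Deserts of hair lineage genes (11 deserts, 181 regions) had 14.4% WT-only and 27.1% dKO-only regions. Trps1 to Eif3h, where Trps1 encodes a GATA-type repressor needed for hair, had 2, 11 and 18, and Prdm1 to Prep, beside a repressor gene of the sebaceous lineage, had 3, 8 and 11.

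Other developmental transcription factors bordered 84 deserts with 737 regions, of which 21.7% were WT-only and 25.8% dKO-only, close to all deserts. A1bg to Myc held 55 (10 WT-only, 10 dKO-only, 35 shared) and Bcl11a to Fancl 50 (9, 19 and 22). Secreted signals and receptors bordered 56 deserts with 467 regions, 16.9% WT-only and 26.8% dKO-only. Igfbp3 to Tns3 had 13, 9 and 27, and Wdr11 to Fgfr2, the latter encoding a fibroblast growth factor receptor, had 4, 6 and 24. The median of WT-only minus dKO-only regions per desert was 0 in each of the 5 lists and over all deserts. A desert can stand in more than 1 list, and no list was tested as a set.

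**Figure D5:**
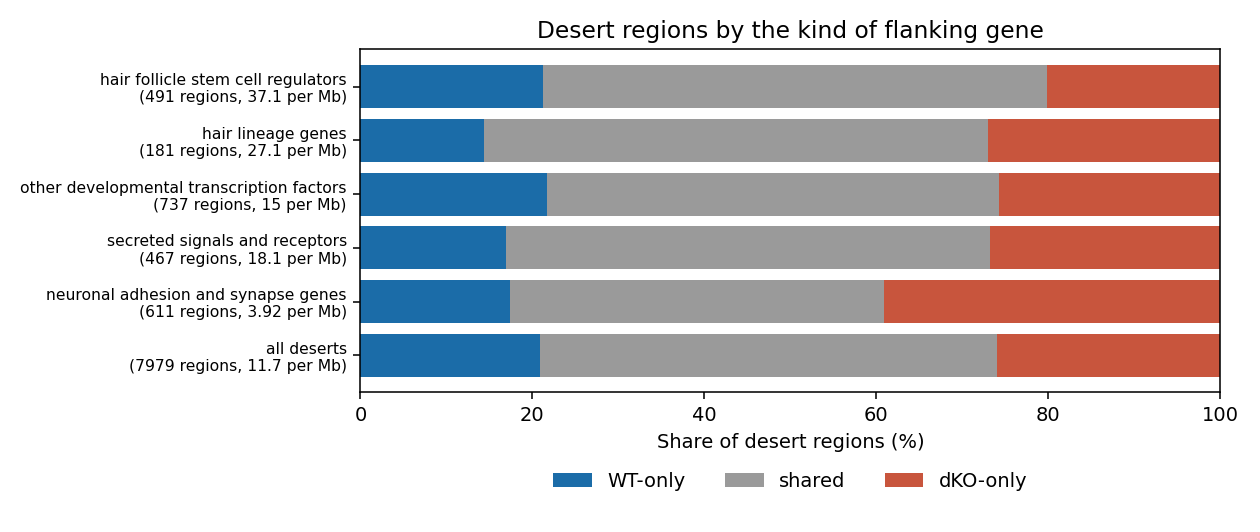
Share of WT-only, shared and dKO-only regions in percent among the desert regions bordered by genes of each list and among all deserts, with the number of regions and their density. The dKO-only part is 39.1% for neuronal adhesion and synapse genes and 20.2% for hair follicle stem cell regulators, against 25.9% for all deserts.

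Most microRNA genes of the deserts had no region nearby. Of 100 desert hairpins 3 were overlapped by a region and 11 had one within 10 kb. Many of the 100 stand in clusters, between Rtl1 and Dio3 and between Gm51483 and Ndn, with no region within 10 kb. The hairpins are thus not separate loci, and the rate at other desert positions was not computed. The mature strands of those 3 and of Mir205, whose nearest region lay 0.75 kb away, are given from RefSeq with the seed, bases 2 to 8, in capitals, and no seed is shared among them.
miR-205-5p: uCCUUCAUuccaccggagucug
miR-125b-5p: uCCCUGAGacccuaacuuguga
let-7c-5p: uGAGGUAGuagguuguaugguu
miR-802-5p: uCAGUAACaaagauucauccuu
Mir205 (chr1:193507463-193507530), the gene of a microRNA of stratified epithelia, had 6 regions within 10 kb, 5 shared and 1 WT-only. Mir125b-1 (chr9:41581926-41582002), encoding a microRNA abundant in skin stem cells, lay in a shared region with a fold of 2.52 in WT and 3.68 in dKO, among 8 within 10 kb (3 WT-only, 1 dKO-only, 4 shared). Mirlet7c-1 (chr16:77599657-77599750), a let-7 gene, lay in a shared region with 2.21 and 2.62, among 7 (2, 0 and 5). Mir802 (chr16:93369720-93369816), in the desert between Runx1 and Setd4, lay in a shared region with a deposited −log10 q of 17.4 in WT and 46.98 in dKO and folds of 6.04 and 11.1. Mir29a and Mir29b-1, 104 kb from the nearest protein-coding gene, had 1 shared region within 10 kb, with a fold of 8.81 and 9.44. Peaks at a hairpin do not show whether the microRNA was made.

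Desert regions in lncRNA genes and in no gene differed little in their classes. LncRNA genes overlapped 1784 desert regions (22.3%), of which 23.8% were dKO-only (21.8 to 25.8) and 21.0% WT-only, and the 6143 desert regions in no gene of the table had 26.6% (25.5 to 27.7) and 20.8%. In nearer intergenic DNA lncRNA genes overlapped 20.8% of regions, 13.7% of them dKO-only. Pseudogenes overlapped 53 desert regions, 13 dKO-only and 12 WT-only.

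The strongest single-list regions of the deserts lay far from one another. By deposited −log10 q the first WT-only ones were chr18:64104990-64105653 (344.0), between Wdr7 and St8sia3, chr18:68692074-68692306 (288.9), chr8:103492832-103494096 (275.7), in the Cdh11 to Cdh5 desert 608.1 kb from the cadherin gene Cdh5, and chr12:95576388-95577505 (205.3), 115.0 kb from Flrt2. Their WT pileups were 451, 253, 440 and 268. They were 664, 233, 1265 and 1118 bp wide, with folds of 14.4, 32.3, 10.3 and 14.2, so the narrowest, over the lncRNA gene Gm30821, had the highest fold. The medians of WT-only desert peaks were 451 bp and a fold of 4.48. Repeats and mappability were not examined for these regions or for the shared ones below. The first dKO-only ones were chr14:86438099-86439354 (109.1), chr6:147784508-147786480 (106.3), chr15:93877966-93878671 (88.3), between the planar polarity gene Prickle1 and the protease gene Adamts20, and chr13:75554723-75555628 (78.7), 152.3 kb from Ell2. Their dKO pileups were 166, 162, 100 and 96 and their folds 10.7, 10.7, 16.8 and 14.6.

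Among shared desert regions the highest −log10 q stood at chr2:98666245-98667365, at 1933 in WT and 2278 in dKO, with pileups of 2730 and 2926. This stretch, 1035 kb from Lrrc4c, is known for high signal in many mouse sequencing libraries, which was not checked here. The second, chr3:5860385-5860823, was 439 bp wide with pileups of 1119 and 251 and folds of 35.02 and 31.8. The third, chr17:39843087-39848827, 5741 bp wide with pileups of 4295 and 888, covers the ribosomal RNA pseudogene Rn18s-rs5 and the lncRNA gene AY036118. The fourth, chr1:19849631-19850815, lay in the desert between Tfap2b, the gene of an epithelial AP-2 factor, and Pkhd1, with pileups of 920 and 445 and folds of 12.9 and 15.8.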

How the data were processed

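ATAC-seq peaks were analysed for 2 WT and 2 dKO mice. Bowtie2 2.2.9, Picard and MACS2 are named, with builds mm10 and GRCm38, in the submitters' processing notes, while the way mice were combined, reads shifted and duplicates handled is not stated in the labels used here. The pileup signal, the fold enrichment ratio and the −log10 p and −log10 q of each peak are the authors' deposited values. Header cells of the −log10 columns were damaged, so a Poisson p was recomputed from pileup and background, and it differed from the column by at most 0.001 (−log10 scale, values under 250) in 99.98% of 62811 peaks for WT and 99.997% of 62822 for dKO.

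Autosomal peaks overlapping by 1 bp were joined (difference of 0 from bedtools 2.31.1), and distances were taken from summits to RefSeq gene bodies of GRCm38.p6, the assembly of mm10, without exons or a genome. The region step was tested on simulated data. Gene-end regions had their strongest summit within 1 kb of a gene end. Python 3.11.15, pandas 2.3.3 and scipy 1.17.1 were used. Shares carry Wilson 95% intervals, for counting error only. Named were the 4 strongest regions per class, the 5 farthest, the 2 nearest on each side of the limit, and deserts by length, number and excess (6 each) and by list (3 each), and for excess deserts also their strongest regions, a choice made after values were seen. The members and lists were chosen with earlier results of these data known. Mitochondrial and Y peaks were left out. Motifs at peak summits were not analysed here, and RefSeq promoter windows, chosen after the design was set, took their place. The alternatives were other overlaps, thresholds, list lengths, depth scaling, distance limits and gene sets.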

Additional observations from a re-analysis of the deposited data

Results flagged for a closer look

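The rule leaves out the sex chromosomes, and the same steps on chromosome X, data outside the comparisons above, found 231 gene-desert regions. Of these 69 were dKO-only (29.9%, Wilson 95% interval 24.3 to 36.1), 45 WT-only (19.5%, 14.9 to 25.1) and 117 shared. Of the 549 nearer intergenic regions of chromosome X, 18.6% were dKO-only and 25.9% WT-only.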

How the results depend on the processing

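The higher dKO-only share of deserts than of nearer intergenic DNA kept its sign in all 9 alternatives, and that in the middle strength class likewise. The former was 9.15 points with summits within 200 bp, 9.03 at a q value of 1e-05 or less, 3.64 with single-list peaks from the stronger 50%, 9.12 over 50 kb, 11.5 over 200 kb and 12.8 over 100 kb from any gene. The latter was 7.70 with the stronger 50%, 15.1 over 200 kb and 21.4 from any gene. The WT-only difference reversed to 0.886 points with the stronger 50%, and was -0.624 over 200 kb and -3.01 from any gene. In the middle WT strength class, where the interval of the 1.87 points includes 0, it was 5.59 over 200 kb, 3.48 (0.578 to 6.38) with summits within 200 bp, 3.36 (0.526 to 6.20) when q was limited to 1e-05 and 3.08 (0.414 to 5.75) with lists of equal length, and 0.888 to 2.19 in the other 5. The dKO-only share of desert regions was 30.2% with summits within 200 bp, 21.6% at a q value of 1e-05 or less, 28.9% with lists of equal length, 5.84% with the stronger 50%, 23.7% over 50 kb, 28.3% over 200 kb and 30.9% from any gene. The WT-only share was 24.8%, 24.7%, 18.5% and 6.03% in the first 4 of these settings and 19.6% from any gene. Desert regions numbered 4827 with the stronger 50%, 12612 over 50 kb, 3982 over 200 kb and 1053 from any gene. The stronger 50% removes weak single-list regions by construction, and for the other changes the cause was not tested. With the WT list scaled to the dKO background, the dKO-only share was 26.6% in deserts and 16.2% nearer to genes. No paired analysis was possible because the mice of a genotype share 1 list and the genotypes share no mouse number. Depth per mouse is unknown, which leaves the balance of weak single-list regions uncertain.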
